A study of Mus musculus with 8 samples.

Results

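The 41 genes described here belong to the unfolded protein response and the integrated stress response (ISR). They were taken as a list of symbols covering the PERK-ATF4, IRE1 and ATF6 arms, by a rule that set no limit on how they moved, although earlier results of these data were known when it was made. All 41 were found among the 22504 Ensembl gene identifiers of the expression table. FPKM, the sequenced fragments scaled to transcript length and library size, had to reach 0.5 in 2 or more of 8 samples for a gene to be tested, which 40 members and 12125 genes in all did. Aldh1l2 was the member below this floor.

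RNA sequencing was performed on 8 samples of Fah-/- mice on the 129S4 strain background. Fah encodes the last enzyme of tyrosine breakdown, and its loss lets toxic intermediates build up in hepatocytes unless the drug NTBC is given, which inhibits a reaction further up the pathway. All mice carried the deletion and were kept on NTBC in the drinking water (7.5 mg/L) before treatment. The first group, C 8w (samples 1a, 2a and 3a), received 2.5% of that dose for 8 weeks, which is called moderate chronic liver injury. The second, C 12w (2e and 3e), received the same reduced dose for 12 weeks, and its tissue is labelled tumor. The third, C 8w + A 4w (C096, C097 and C098), received the reduced dose for 8 weeks and then no NTBC for 4 weeks, called severe acute liver injury, and its tissue is labelled liver. Age and sex were not given in the labels, and no sample at the full dose was analysed here. The groups are called the 8-week, 12-week and withdrawal groups below.

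Several facts of the whole series bear on the values. The sample codes fall into 2 series, with the 8-week group and the 12-week group in the first and the withdrawal group alone in the second, so code series and treatment cannot be told apart in either comparison with the withdrawal group. The 12-week and 8-week groups lie within 1 series, but differ in both duration and labelled tissue, which cannot be told apart. Fah was at 13.5 to 16.8 FPKM in the first series and 5.02 to 6.36 in the second, and since every group carries the deletion this checks no label. Gapdh ranged from 0.0980 to 0.247 FPKM and Ppia from 0.408 to 0.533 in the first series, against 68.2 to 99.9 and 761 to 848 in the second. Alb was listed at 0 in the first series and between 12946 and 16950 in the second, while Ttr, Apoa1 and Fgb were high in every sample. The sources used here do not say that both series were quantified in the same way, and a difference in quantification cannot be told apart from treatment in any value of the withdrawal group set against the others. The extraction protocol of the labels names retinas, but 8 of 10 retina markers were below 1 FPKM in all samples. FPKM holds no counts, so sequencing depth was unknown and no counting interval can be given. The study treats the samples as single animals of the 3 groups, although the labels name no mouse, and p-values measure the spread between these samples.

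Unfolded proteins in the endoplasmic reticulum (ER) are sensed by the membrane proteins PERK (Eif2ak3), IRE1 (Ern1) and ATF6. PERK and related kinases phosphorylate the translation factor eIF2, which lowers general protein synthesis but favours translation of ATF4, a factor that drives genes of amino acid synthesis, redox balance and, with CHOP (Ddit3), cell death. IRE1 splices the mRNA of XBP1, and ATF6 is cut in the Golgi; both then raise chaperones and the machinery of ER-associated degradation. Hepatocytes secrete large amounts of protein and depend on these pathways. Transcript levels do not show phosphorylation, splicing or cleavage.

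The promoters of the members were searched for elements known from these arms. RefSeq windows of 300 bases (GRCm38.p6), from 250 bases before to 50 after the transcription start, were matched by symbol for 37 of 41 members (not Aldh1l2, Atf6, Hyou1 and Manf) and 27025 genes in all. Both strands were searched for the amino acid response type element CARE (TGATGNAA), the ER stress element ERSE (CCAAT, 9 bases of any kind, then CCACG), ERSE-II (ATTGG, 1 base, then CCACG) and the element UPRE (TGACGTGG). CARE was found in 8 of 37 members (21.6%) against 4.51% of all genes, ERSE in 9 (24.3%) against 0.137%, ERSE-II in 2 (5.41%) against 0.0444%, and UPRE in 0 of 37 against 0.714%. A match is a description of the letters in the window and not a bound site. The stretches below are those of called members with a CARE or ERSE before the start, and of Creld2, Derl3 and Herpud1, whose spread inside a group is described later. Capitals mark the element on either strand, and ERSE on the opposite strand reads CGTGG, 9 bases, then ATTGG.
Asns, chr6:7693215-7693242, minus strand, bases 33 to 6 before the start: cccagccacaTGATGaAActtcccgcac
Atf3, chr1:191183426-191183453, minus strand, bases 120 to 93 before the start: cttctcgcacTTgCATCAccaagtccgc
Nupr1, chr7:126625563-126625590, minus strand, bases 120 to 93 before the start: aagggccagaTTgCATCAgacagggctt
Chac1, chr2:119351039-119351066, plus strand, bases 203 to 176 before the start: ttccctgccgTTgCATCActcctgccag
Fgf21, chr7:45615612-45615639, minus strand, bases 149 to 122 before the start: gacccccccaTTgCATCAtccgtccagg
Vldlr, chr19:27216810-27216837, plus strand, bases 210 to 183 before the start: gcagcaatagTTgCATCAgcgctcctag
Hspa5, chr2:34772015-34772053, plus strand, bases 75 to 37 before the start: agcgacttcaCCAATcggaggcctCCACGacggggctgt
Dnajc3, chr14:118937817-118937855, plus strand, bases 115 to 77 before the start: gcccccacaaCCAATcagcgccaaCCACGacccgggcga
Creld2, chr15:88819510-88819548, plus strand, bases 136 to 98 before the start: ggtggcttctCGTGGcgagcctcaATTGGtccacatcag
Derl3, chr10:75893232-75893270, plus strand, bases 166 to 128 before the start: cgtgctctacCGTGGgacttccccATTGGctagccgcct
Herpud1, chr8:94386307-94386397, plus strand, bases 122 to 32 before the start: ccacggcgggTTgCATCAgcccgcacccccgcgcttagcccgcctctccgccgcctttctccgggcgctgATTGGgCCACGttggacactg
The stretches shown were chosen with the calls known, so the calls are counted over all members that hold an element. Of the 8 CARE members, 3 (37.5%) were called higher after withdrawal than in the 8-week group, against 24.2% of all genes, and 6 (75%) at 12 weeks, against 12.3%. Those called at 12 weeks were Asns, Atf3, Nupr1, Chac1, Fgf21 and Vldlr, of which Asns, Atf3 and Vldlr were also called after withdrawal, while Trib3 and Herpud1 were called in neither. Without any one 8-week sample the 12-week count was 2 of 8 (25%), Asns and Nupr1, against 4.54% to 6.1% of all genes. Nupr1 is in both 12-week counts but was at the floor in no 8-week sample, so it counts with no test. Of the 2, this leaves Asns alone. Of the 9 ERSE members, 2 (22.2%) were called higher after withdrawal, Hspa5 and Dnajc3, which is near the share of all genes, and limma called 0 at 12 weeks. Without any one 8-week sample it called 0 after withdrawal. Calr, Canx, Creld2, Derl3, Hsp90b1, Pdia6 and Syvn1 were called in neither.

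Compared with the 8-week group, 15 of 40 members were higher and 0 lower in the withdrawal group, with Psat1, Sec61b, Atf3 and Asns showing the largest differences. In the 12-week group against the 8-week group, 14 of 40 were higher and 0 lower, led by Chac1, Nupr1, Atf3, Fgf21 and Psat1. Between the 2 treatments, 3 members were higher and 5 lower in the withdrawal group than in the 12-week group. A gene was called when limma's moderated test on log2(FPKM + 1), two-sided and adjusted over the 12125 genes, gave an adjusted p under 0.05, and all fold changes below are differences on this log2 scale, which understates changes of low genes. Over all genes tested, 24.2% were higher and 12.6% lower in the withdrawal group than in the 8-week group, against 37.5% and 0% of the members. For the 12-week group against the 8-week group, 12.3% of all genes were higher and 6.34% lower, against 35% and 0%. For the withdrawal group against the 12-week group, 17.2% of all genes were higher and 15.4% lower, against 7.5% and 12.5%. Nupr1 and Phgdh reached the floor in no 8-week sample and were tested only because treated samples reached it. Without genes at the floor in 1 of the 2 groups alone, 15 of 38 members (39.5%, against 23.4% of all such genes) were higher after withdrawal and 13 of 38 (34.2%, against 11.5%) at 12 weeks. The median log2 fold change of the members was 0.70, 0.55 and 0.03 in the 3 comparisons, in that order, against 0.12, 0.12 and -0.00058 over all genes. At an unadjusted p under 0.05, limma gave 0 members lower in the first comparison, against 1982 of all 12125 genes. In the second it gave 1, against 1442 of all genes. This was Sesn2, a gene named after its value was seen.

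The genes higher than at 12 weeks after withdrawal were Dnajb9, Edem1 and Sec61b, and those lower were Nupr1, Mthfd2, Chac1, Fgf21 and Xbp1. In bulk tissue, a change in the share of a cell type and a change of RNA per cell cannot be told apart. Of 6 endothelial markers, Stab2, Clec4g and Kdr were called lower in both treated groups than in the 8-week group and Lyve1 higher after withdrawal, and the 6 summed to 41.6 to 45.5 FPKM in the 8-week group, 23.4 to 28.2 at 12 weeks and 19.5 to 36.9 after withdrawal. Of 4 bile duct markers tested, Epcam, Sox9 and Spp1 were called higher at 12 weeks and Epcam after withdrawal. Of 7 stellate and fibroblast markers, Col1a1, Col1a2 and Col3a1 were called higher and Dcn lower at 12 weeks, and Col3a1 lower after withdrawal. Against the 12-week group, Col1a1, Col1a2 and Col3a1 were lower and Dcn higher after withdrawal, and Col1a1 averaged 5.63 FPKM at 12 weeks and 0.309 after withdrawal. The 7 had sums of 79.9 to 92.6, 71.8 to 87.6 and 83.0 to 132 FPKM in the 3 groups. None of these 3 lists had a marker at 0 in any sample. Of 9 hepatocyte markers, Apoa1 was called higher and Cps1 lower after withdrawal and Apob higher at 12 weeks, each against the 8-week group. Between withdrawal and 12 weeks, Apob, Cps1, Serpina1a and Tat were lower after withdrawal. Alb, listed at 0 in every other sample, passed the floor through the withdrawal samples alone, so its difference is given with no test. These marker calls moved with single samples. At 12 weeks against the 8-week group, limma called 0 bile duct and 0 stellate and fibroblast markers without 1a, and 1 endothelial marker lower. Of all genes 4.54% were then higher and 2.76% lower. After withdrawal without 1a, 1 bile duct marker was higher and 3 endothelial markers lower. In that fit 0 endothelial markers were higher, and 0 stellate and fibroblast and 0 hepatocyte markers lower. The part of these markers in the values of the members was not tested.

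The counts of members moved with single samples. Of withdrawal against 8 weeks, 5 members were called without 1a (12.5%, against 14.2% of all genes) and 9 without 2a (22.5%, against 17.5%). Of 12 against 8 weeks, 4 were called without 1a (10%, against 4.54% of all genes) and 5 without either 2a or 3a (12.5%, against 6.1% and 5.14%). Nupr1, which reached the floor in no 8-week sample, is in each of these counts. With all samples limma called 0 members lower at 12 weeks, but without 3e it called Sesn2 lower, at -0.98 (SE 0.23, adjusted p = 0.0298), and without 2e Edem1, at -0.58 (SE 0.16, adjusted p = 0.0230), both named after their values were seen. Between the withdrawal group and the 12-week group, 2 were higher (5%, against 14.1% to 14.7% of all genes) and 2 lower (5%, against 12.6% to 12.8%) without any one of the 8-week samples. Those samples enter that fit through the shared estimate of the spread. There was 1 in each direction (2.5%, against 13.7% and 10.8%) without C098. Without C097, Dnajb9, Edem1, Manf, Sec61b and Vldlr were higher (15.1% of all genes were) and Xbp1 alone was lower. Without C096, Sec61b alone was higher (14.3% of all genes were), and Calr, Chac1, Mthfd2, Nupr1, Trib3 and Xbp1 were lower. The balance of the 2 directions thus moved with single samples. Members not called in any comparison with all 8 samples, but called in 1 or more with a sample left out, were Atf4, Trib3, Phgdh, Sesn2, Ddit4, Ern1, Creld2, Calr, Pdia6, Herpud1 and Sel1l, and a gene given below as called or not called is so with all 8 samples unless a left-out sample is named. Both treated groups were compared with the same 3 samples of the 8-week group. Median-ratio scaling lowered each of the first 2 counts to 9, ending the calls of Atf5, Ppp1r15a, Hspa5, Hyou1, Dnajb9 and Dnajc3 after withdrawal and of Eif2ak3, Atf5, Vldlr, Pdia3 and Sec61b at 12 weeks. With this scaling 22.5% of the members were higher after withdrawal, near the 19.4% of all genes, and 22.5% at 12 weeks, against 10.3%. With quantile scaling the shares were 25% against 16.5% and 27.5% against 8.51%. Quantile scaling ended the calls of Eif2ak3, Ppp1r15a, Hyou1, Dnajb11 and Dnajc3 after withdrawal and of Eif2ak3, Atf6, Vldlr and Sec61b at 12 weeks. Between the withdrawal group and the 12-week group it ended those of Chac1 and Edem1. The split of all calls moved too, since higher genes made up 65.7% of them after withdrawal as deposited, 52.4% with median-ratio and 44.5% with quantile scaling, and 65.9%, 52.5% and 46.3% at 12 weeks.

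**Figure D1:**
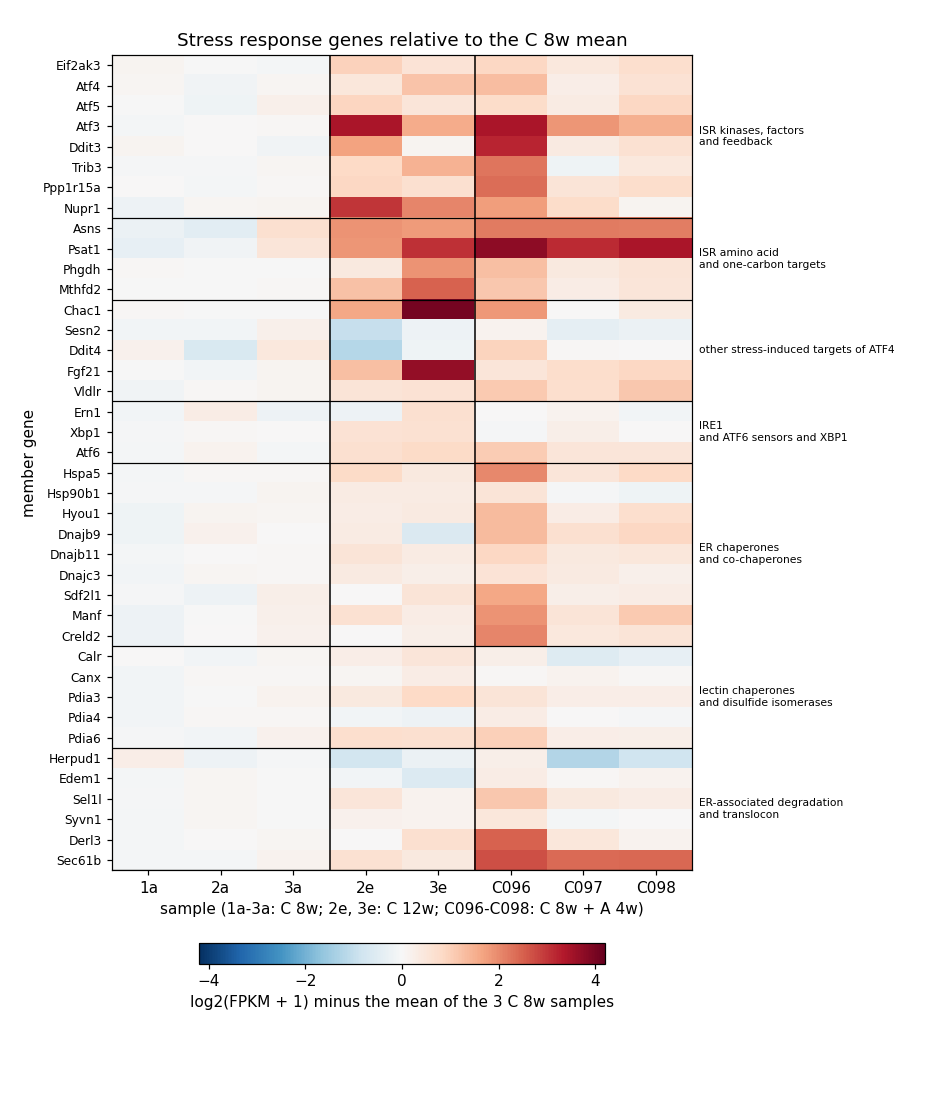
Heat map of 40 members (rows, ordered by role) in 8 samples (columns), coloured by log2(FPKM + 1) minus the mean of the 3 samples of the 8-week group, with red above and blue below that mean. Psat1 and Asns are red in all 5 treated samples, while the chaperones are most strongly red in C096.

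Of the ISR factors, Eif2ak3, Atf5 and Atf3 were called higher in both treated groups than in the 8-week group, Ppp1r15a after withdrawal and Nupr1 at 12 weeks. Of the 8 genes of this role, 4 (50%) were higher in each comparison with the 8-week group, against 24.2% of all genes after withdrawal and 12.3% at 12 weeks, with a median log2 fold change of 0.85 in the withdrawal group and 0.87 in the 12-week group. With median-ratio scaling 2 of 8 (25%) were higher in each comparison, near the 19.4% of all genes after withdrawal and against 10.3% at 12 weeks. The 2 at 12 weeks were Atf3 and Nupr1. After withdrawal 1 was higher without 1a (12.5%, against 14.2% of all genes) and 2 without 2a (25%, against 17.5%). At 12 weeks 1 was higher without any one 8-week sample (12.5%, against 4.54% to 6.1%). This was Nupr1 each time, which reached the floor in no 8-week sample, and no other gene of this role was called. The FPKM of Eif2ak3, the kinase PERK, was 5.25, 4.75 and 4.498 at 8 weeks, 10.4 and 7.65 at 12 weeks, and 9.58, 6.87 and 8.44 after withdrawal. Every treated sample lay above every 8-week sample, and the log2 fold change was 0.66 (SE 0.15, adjusted p = 0.0101) in the withdrawal group and 0.77 (SE 0.17, adjusted p = 0.0183) in the 12-week group. Atf5, a factor translated like Atf4 under stress, was measured at 85.4, 74.7 and 98.9 at 8 weeks, 161 and 124 at 12 weeks, and 146, 110.1 and 159 after withdrawal. Every treated sample again lay above the 8-week group, while the treated groups overlapped each other, with log2 fold changes of 0.67 (SE 0.18, adjusted p = 0.0230) and 0.71 (SE 0.21, adjusted p = 0.0458). Atf3, an early stress factor, had values of 2.198, 2.47 and 2.54 at 8 weeks, 35.7 and 8.91 at 12 weeks, and 35.7, 11.2 and 8.52 after withdrawal. In both treated groups 1 sample reached 35.7, about 3 to 4 times the others, yet all 5 lay above the 8-week group, and the log2 fold change was 2.25 (SE 0.57, adjusted p = 0.0157) in the withdrawal group and 2.49 (SE 0.64, adjusted p = 0.0310) in the 12-week group.

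Atf4 and Ddit3 did not pass the threshold in any comparison with all 8 samples. The FPKM of Atf4, the central factor of the response, was 69.6, 59.6 and 70.4 at 8 weeks, 92.9 and 152 at 12 weeks, and 163, 81.4 and 100.7 after withdrawal. All treated samples exceeded the 8-week group, with log2 fold changes of 0.72 (SE 0.27, adjusted p = 0.0674) and 0.83 (SE 0.30, adjusted p = 0.0870). With a sample left out, Atf4 was called higher after withdrawal without 2e, 3e or C097 (adjusted p = 0.0363, 0.0362 and 0.0345), and at 12 weeks without 2e or C096 (0.0278 and 0.0439). Ddit3 was called in none of these fits. Ddit3, which encodes CHOP, was measured at 11.4, 10.5 and 9.19 at 8 weeks, 35.8 and 11.2 at 12 weeks, and 102, 13.8 and 16.5 after withdrawal. Only C096 and 2e stood clearly above the rest, and the log2 fold change was 1.40 (SE 0.71, adjusted p = 0.153) in the withdrawal group and 0.90 (SE 0.79, adjusted p = 0.436) in the 12-week group. Trib3, an inhibitor of ATF4 signalling, ranged from 13.9 to 15.4 in the 8-week group, 26.4 to 40.95 in the 12-week group and 12.4 to 71.5 in the withdrawal group, and was not called.

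Ppp1r15a encodes GADD34, which reverses the phosphorylation of eIF2, and had an FPKM of 3.29, 3.04 and 3.39 at 8 weeks, 6.78 and 5.76 at 12 weeks, and 20.4, 5.14 and 6.08 after withdrawal. All treated samples lay above the 8-week group, and the difference was called in the withdrawal group at 1.20 (SE 0.41, adjusted p = 0.0477), although its value in C096 was more than 3 times that in the other samples of the group. For the 12-week group the log2 fold change was 0.78 (SE 0.45, adjusted p = 0.249). Without C096, which enters that fit through the shared estimate of the spread, the same 0.78 was called (SE 0.13, adjusted p = 0.00931). Nupr1, a small stress-induced chromatin protein, was measured at 0.117, 0.379 and 0.417 at 8 weeks, 9.39 and 4.33 at 12 weeks, and 3.43, 1.22 and 0.393 after withdrawal. It was higher in the 12-week group than in the 8-week group by 2.52, and lower in the withdrawal group than in the 12-week group, with a log2 fold change of -1.64 (SE 0.45, adjusted p = 0.0248). Both 12-week samples lay above all others. Since no 8-week sample reached the floor, Nupr1 passed only through samples where it is high, so its difference from that group is given with no test. Without it, 3 of 7 genes of this role (42.9%, against 11.5% of all such genes) were higher at 12 weeks.

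With 1 sample left out at a time, adjusted p for the withdrawal group against the 8-week group ranged from 0.00411 to 0.0412 for Eif2ak3, which kept its call, and from 0.00449 to 0.0568 for Atf3, which lost it without 1a. The calls of Atf5 (lost without 1a, 2a, C096 or C098) and Ppp1r15a (lost without any one 8-week sample or C098) gave ranges of 0.0125 to 0.0878 and 0.0100 to 0.118. For the 12-week group against the 8-week group, Eif2ak3 (0.0123 to 0.0687), Atf3 (0.0113 to 0.0924) and Atf5 (0.0350 to 0.132) lost it without any one 8-week sample, Atf3 and Atf5 also without 2e, and Atf5 also without C096 or C098. The call of Nupr1 between the withdrawal group and the 12-week group was lost without 2e, C097 or C098 (0.00561 to 0.110).

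**Figure D2:**
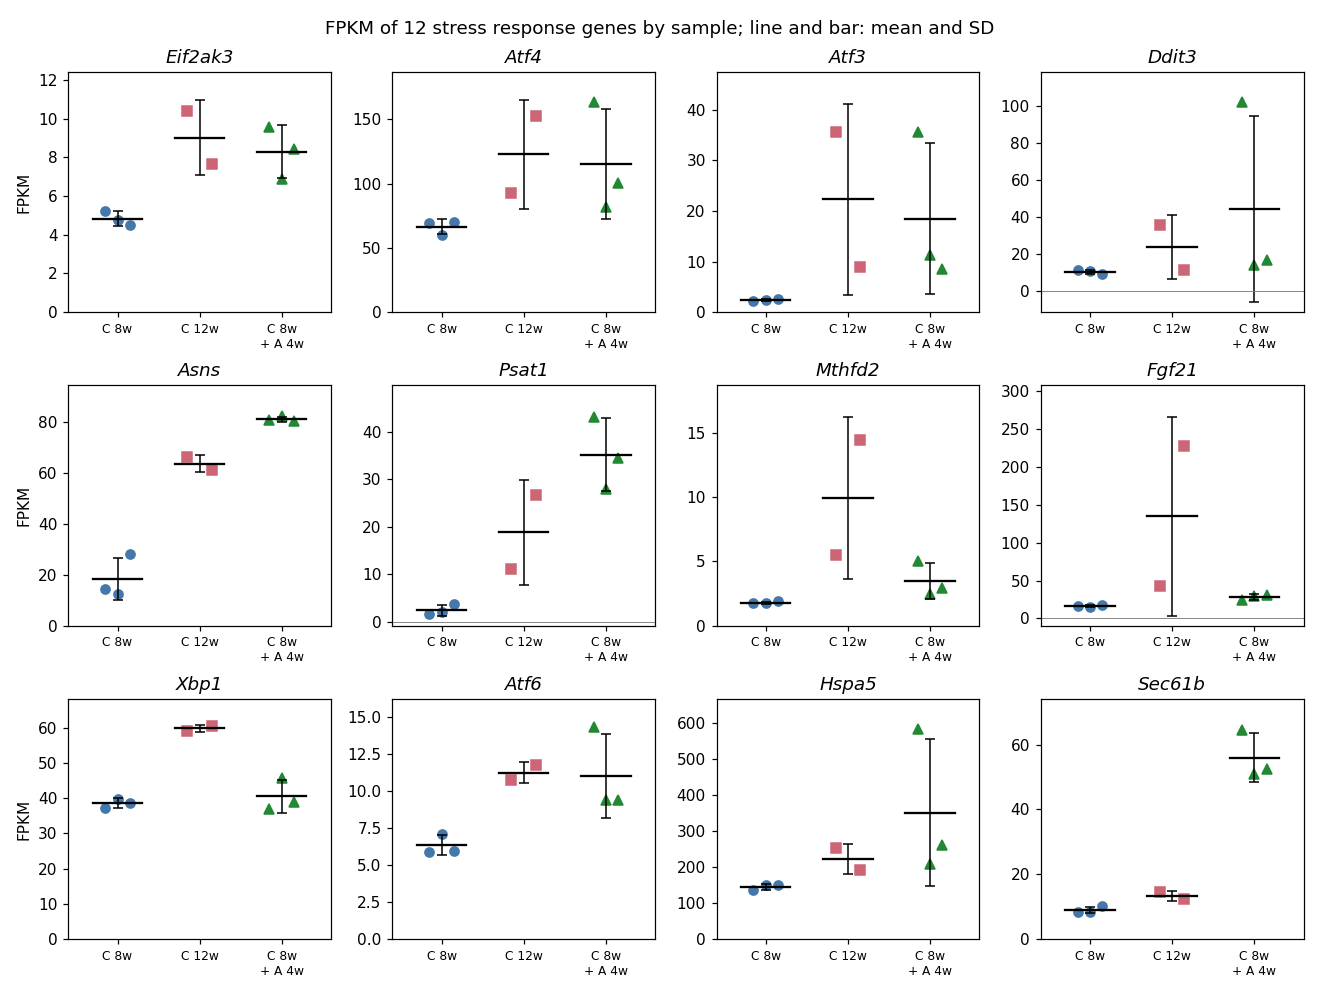
FPKM (linear axis from 0 or below) of 12 members in the 3 groups, with 1 point per sample, a line at the mean and a bar of 1 SD (n = 3, 2 and 3). Asns and Psat1 separate the 8-week group from the other groups, Xbp1 is higher in the 12-week group alone, and Hspa5 and Ddit3 have C096 far above C097 and C098.

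Among genes of amino acid and one-carbon synthesis, Asns and Psat1 were higher in both treated groups than in the 8-week group. Of the 4 tested, 2 (50%, against 24.2% of all genes) were higher after withdrawal and 3 (75%, against 12.3%) at 12 weeks, with a median log2 fold change of 1.46 and 1.84. Asns, which makes asparagine, had an FPKM of 14.4, 12.5 and 27.98 at 8 weeks, 66.1 and 61.2 at 12 weeks, and 80.9, 82.2 and 80.4 after withdrawal. The withdrawal samples agreed closely and lay above both other groups, with log2 fold changes against the 8-week group of 2.17 (SE 0.25, adjusted p = 0.000377) in the withdrawal group and 1.83 (SE 0.28, adjusted p = 0.00496) in the 12-week group. Psat1, an enzyme of serine synthesis, was measured at 1.56, 1.96 and 3.67 at 8 weeks, 11 and 26.6 at 12 weeks, and 43.1, 27.8 and 34.4 after withdrawal. The order was the 8-week group, the 12-week group and the withdrawal group without overlap, with log2 fold changes against the 8-week group of 3.44 (SE 0.34, adjusted p = 0.000145) and 2.47 (SE 0.38, adjusted p = 0.00460), and 0.97 (SE 0.38, adjusted p = 0.0821) between the withdrawal group and the 12-week group. Asns differed between those 2 groups by 0.35 (SE 0.28, adjusted p = 0.382). Mthfd2, a mitochondrial enzyme of folate metabolism, had values of 1.72, 1.73 and 1.88 at 8 weeks, 5.49 and 14.4 at 12 weeks, and 5.03, 2.44 and 2.92 after withdrawal. It was called higher in the 12-week group than in the 8-week group, at 1.85 (SE 0.35, adjusted p = 0.0112), and lower in the withdrawal group than in the 12-week group, at -1.21 (SE 0.35, adjusted p = 0.0311).

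Phgdh, the first enzyme of serine synthesis, was low throughout, at up to 0.0465 FPKM in the 8-week group with 2a listed at 0, 0.348 to 2.8 in the 12-week group and 0.362 to 1.47 in the withdrawal group. It was not called, and 47.8% of its 50-base transcript windows occur in another gene, so its level is uncertain. Aldh1l2, a mitochondrial folate enzyme, ranged from 0.0539 to 0.0594 in the 8-week group, 0.497 to 2.97 in the 12-week group and 0.0897 to 0.2202 in the withdrawal group. The calls of Asns and Psat1 against the 8-week group, and of Mthfd2 in the 12-week group against the 8-week group, held in every fit that left out 1 sample. Mthfd2 lost its call between the withdrawal group and the 12-week group without any one 8-week sample, 3e, C097 or C098 (0.00169 to 0.148).

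Of the 5 other targets of ATF4, 3 (60%, against 12.3% of all genes) were higher at 12 weeks and 1 (20%, against 24.2%) after withdrawal than in the 8-week group, and 2 (40%, against 15.4%) were lower after withdrawal than at 12 weeks. The 12-week count was 0 without any one 8-week sample, against 4.54% to 6.1% of all genes, and 1 without 3e (20%, against 8.92%). Chac1, which degrades glutathione, had an FPKM of 0.7898, 0.723 and 0.699 at 8 weeks, 4.31 and 27.4 at 12 weeks, and 5.09, 0.745 and 1.28 after withdrawal. The 12-week samples lay far apart from each other, and the gene was called in the 12-week group against the 8-week group at 2.82 (SE 0.69, adjusted p = 0.0276) and in the withdrawal group against the 12-week group at -2.08 (SE 0.69, adjusted p = 0.04998), where the groups overlapped and the value sat at the threshold. Fgf21, a liver hormone of the fasting and stress response, was measured at 16.8, 15.6 and 18.2 at 8 weeks, 42.3 and 228 at 12 weeks, and 24.3, 29.01 and 31.6 after withdrawal. All treated samples exceeded the 8-week group, and 3e stood more than 5 times above 2e, with log2 fold changes of 2.48 (SE 0.56, adjusted p = 0.0198) in the 12-week group and 0.71 (SE 0.50, adjusted p = 0.297) in the withdrawal group against the 8-week group, and -1.77 (SE 0.56, adjusted p = 0.0402) between those 2 groups. Vldlr, a lipoprotein receptor, had values of 1.12, 1.399 and 1.502 at 8 weeks, 2.37 and 2.56 at 12 weeks, and 3.97, 2.81 and 4.14 after withdrawal. Its groups did not overlap, and it was called against the 8-week group in the withdrawal group at 0.98 (SE 0.14, adjusted p = 0.00112) and in the 12-week group at 0.57 (SE 0.16, adjusted p = 0.0383). Sesn2, a regulator of mTORC1, ranged from 8.62 to 21.2 over all samples and Ddit4, also an inhibitor of mTORC1, from 12.4 to 57.8, and neither was called.

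Vldlr in the withdrawal group kept its call in every fit that left out 1 sample. For the 12-week group against the 8-week group, Chac1 (0.00200 to 0.101) and Fgf21 (3.01e-05 to 0.0656) lost their calls without any one 8-week sample, Chac1 also without 3e, and Vldlr (0.0209 to 0.129) without any one 8-week sample, 3e or C098. The calls between the withdrawal group and the 12-week group were lost without any one 8-week sample, C097 or C098, for Chac1 also without 3e (0.00309 to 0.282) and for Fgf21 also without C096 (1.36e-05 to 0.101). The 6 bile duct markers, of which 4 passed the floor and none was at 0 in 3e, summed to 339.1 FPKM in 3e, mostly Spp1 at 311, against 28.4 in 2e, 9.58 to 15.4 in the 8-week group and 26.7 to 33.0 in the withdrawal group. Their part in the high values of 3e was not tested.

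Of the sensors, Atf6 was higher in both treated groups and Xbp1 in the 12-week group. The FPKM of Atf6 was 5.91, 7.13 and 5.99 at 8 weeks, 10.8 and 11.7 at 12 weeks, and 14.3, 9.37 and 9.43 after withdrawal. All treated samples lay above the 8-week group, with log2 fold changes of 0.69 (SE 0.17, adjusted p = 0.0124) and 0.74 (SE 0.18, adjusted p = 0.0287). Xbp1, the factor spliced by IRE1, was measured at 37.2, 39.9 and 38.7 at 8 weeks, 59.1 and 60.5 at 12 weeks, and 36.99, 45.8 and 38.8 after withdrawal. Both 12-week samples lay above all others, the log2 fold change was 0.62 (SE 0.12, adjusted p = 0.0134) against the 8-week group, and the withdrawal group was lower than the 12-week group at -0.56 (SE 0.12, adjusted p = 0.0103). Between the withdrawal group and the 8-week group, Xbp1 differed by 0.06 (SE 0.11, adjusted p = 0.680). Ern1, which encodes IRE1, had values of 10.9, 14.9 and 10.2 at 8 weeks, 10.1 and 19.3 at 12 weeks, and 11.9, 13.1 and 10.9 after withdrawal. These overlapped among all groups, and Ern1 was not called. Without 1a, the calls of Atf6 in the withdrawal group (0.0109 to 0.0542) and of Xbp1 in the 12-week group (0.0108 to 0.0573) against the 8-week group were lost, and that of Atf6 in the 12-week group was lost without any one 8-week sample or 3e (0.00926 to 0.0958). Xbp1 kept its call between the withdrawal group and the 12-week group in every such fit, but lost it with only the 2 groups compared.

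The ER chaperones were higher in the withdrawal group than in the 8-week group for 6 of 9 genes (66.7%, against 24.2% of all genes), with a median log2 fold change of 0.77. With median-ratio scaling 2 of 9 were higher (22.2%, against 19.4% of all genes), and with quantile scaling 3 of 9 (33.3%, against 16.5%). As deposited, in the 12-week group against the 8-week group, 0 of 9 were called by limma, against 12.3% of all genes called higher. At an unadjusted p under 0.05 in limma there was 1 of 9, against 4420 of all 12125 genes. The median log2 fold change was 0.34. After withdrawal 1 of 9, Dnajb9, was higher than at 12 weeks (11.1%, against 17.2% of all genes called higher and 15.4% lower). The FPKM of Hspa5, which encodes BiP, the main ER chaperone, was 136, 150.2 and 149.6 at 8 weeks, 252 and 193 at 12 weeks, and 585, 208 and 262 after withdrawal. All treated samples exceeded the 8-week group, C096 was more than 2 times any other, and the log2 fold change was 1.12 (SE 0.34, adjusted p = 0.0326) in the withdrawal group and 0.60 (SE 0.38, adjusted p = 0.285) in the 12-week group. Dnajb9, a co-chaperone of BiP, was measured at 56.4, 72.4 and 64.7 at 8 weeks, 81.9 and 41.8 at 12 weeks, and 161, 103 and 119 after withdrawal. All withdrawal samples lay above both other groups, by 0.96 (SE 0.26, adjusted p = 0.0211) against the 8-week group and 1.09 (SE 0.29, adjusted p = 0.0218) against the 12-week group. Manf, a secreted ER protein, had values of 6.75, 7.89 and 9.403 at 8 weeks, 12.97 and 10.2 at 12 weeks, and 32.2, 11.9 and 18.1 after withdrawal. Its withdrawal samples exceeded the 8-week group by 1.17 (SE 0.31, adjusted p = 0.0182), and 6.17% of its transcript windows occur in another gene.

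Hyou1, an ER chaperone of the Hsp70 family, had an FPKM of 22.2, 27.8 and 27.1 at 8 weeks, 32.3 and 33.2 at 12 weeks, and 65.01, 31.6 and 41.9 after withdrawal. It was higher in the withdrawal group than in the 8-week group by 0.77 (SE 0.23, adjusted p = 0.0326). Dnajb11, another co-chaperone of BiP, was measured at 16.3, 17.2 and 17.96 at 8 weeks, 25.2 and 21.9 at 12 weeks, and 31.8, 23.2 and 23.9 after withdrawal. It was higher by 0.58 (SE 0.14, adjusted p = 0.0123), with all treated samples above the 8-week group. Dnajc3, an inhibitor of eIF2 kinases, was higher by 0.40 (SE 0.13, adjusted p = 0.0399). Hsp90b1, Sdf2l1 and Creld2 were not called in any comparison with all 8 samples. Creld2 ranged from 11.4 to 15.3 in the 8-week group and 18.3 to 57.7 in the withdrawal group, Sdf2l1 from 13.9 to 19.3 and 19.6 to 52.3, and Hsp90b1 from 215 to 241 and 195 to 322.

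Without 1a, limma called 0 of 9 chaperones in the withdrawal group against the 8-week group, against 14.2% of all genes, and without either 2a or 3a it called 2 (22.2%, against 17.5% and 18.1%). Without C096, 4 of 9 were called higher in the withdrawal group against the 8-week group (44.4%, against 19% of all genes), with a median of 0.49. The calls of Hspa5 (0.0151 to 0.103), Hyou1 (0.00892 to 0.118) and Dnajc3 (0.0293 to 0.145) were each lost without any one 8-week sample. Hspa5 and Hyou1 also lost theirs without C098, Hyou1 and Dnajc3 without C096, and Dnajc3 without C097. Dnajb9 (0.00354 to 0.0834) lost its call against the 8-week group without 1a, 3a or C096, Manf (0.00477 to 0.0730) without 1a or 2a, and Dnajb11 (0.00919 to 0.0548) without 1a. Against the 12-week group, Dnajb9 lost its call without 3e, C096 or C098 (0.00217 to 0.104).

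The lectin chaperones and disulfide isomerases, which fold glycoproteins and form disulfide bonds, were mostly not called. After withdrawal, limma called 0 of 5 against the 8-week group (24.2% of all genes were higher). At an unadjusted p under 0.05 there were 2 of 5, against 5714 of all 12125 genes. In the 12-week group against the 8-week group limma called 1 of 5 (20%, against 12.3%). The FPKM of Pdia3, that gene, was 102, 109 and 123 at 8 weeks, 148 and 197 at 12 weeks, and 164, 135 and 136 after withdrawal. All treated samples lay above the 8-week group, with 0.61 (SE 0.17, adjusted p = 0.0418) in the 12-week group and 0.37 (SE 0.15, adjusted p = 0.0898) in the withdrawal group. This call was lost without any one 8-week sample, 3e, C097 or C098 (0.0101 to 0.164). Calr, Canx, Pdia4 and Pdia6 were not called, and their log2 fold changes in the withdrawal group against the 8-week group were -0.20, 0.09, 0.10 and 0.51.

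**Figure D3:**
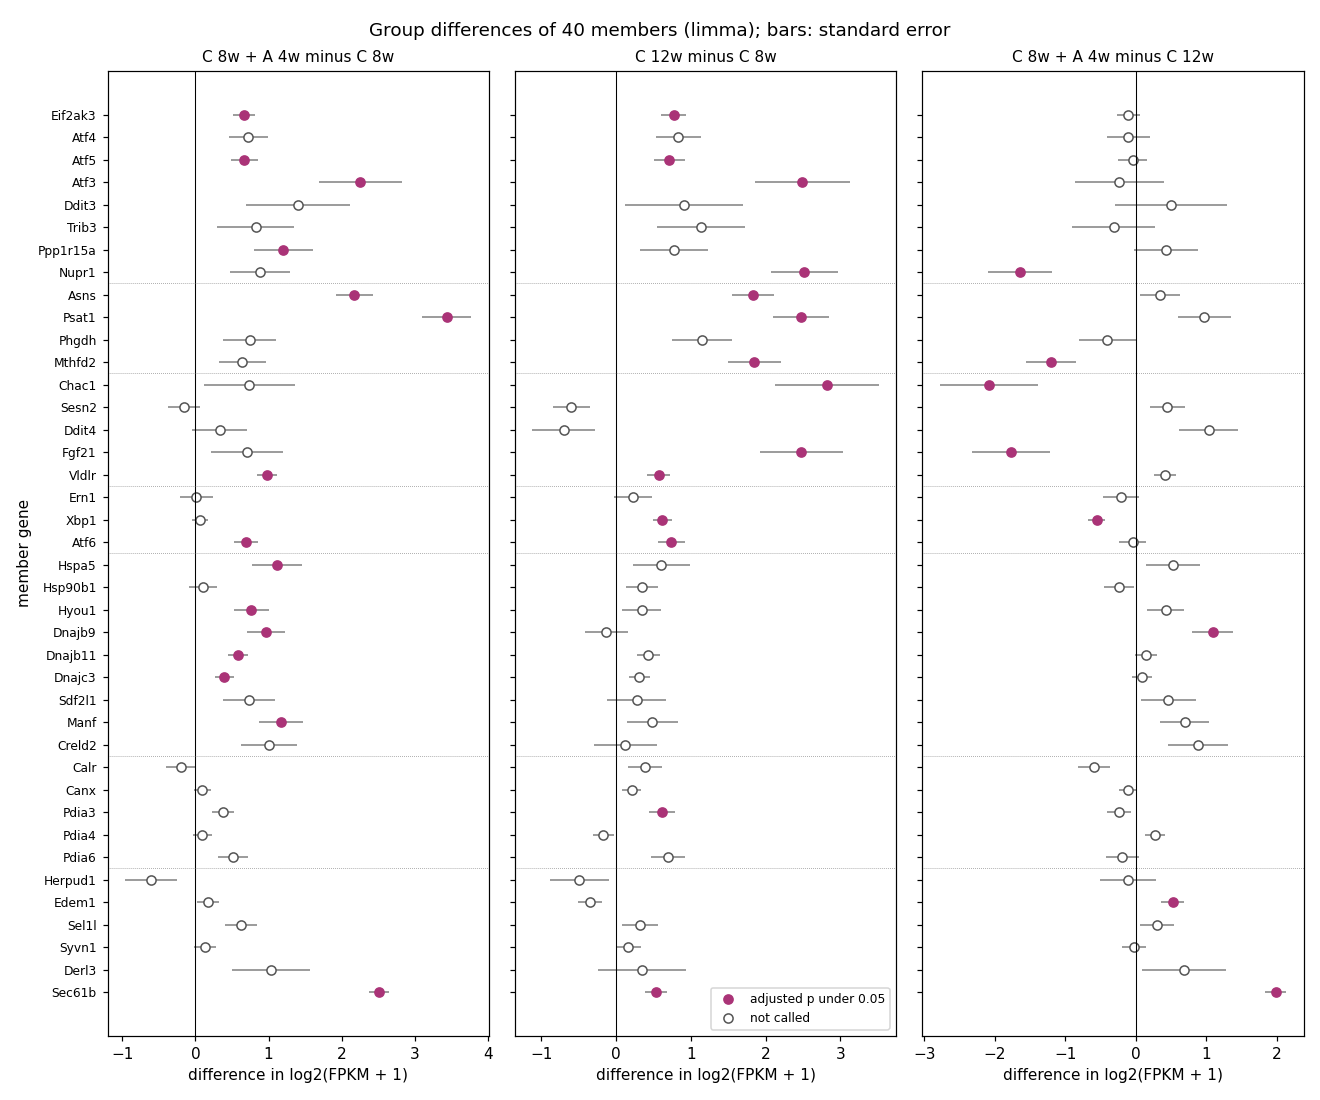
Log2 fold changes (differences in log2(FPKM + 1), x axis) of 40 members (y axis, ordered by role) in 3 comparisons, with bars of 1 standard error, filled points for genes called and open points for the rest. Filled points lie to the right of 0 in both comparisons with the 8-week group, and on both sides in the withdrawal group against the 12-week group.

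Among genes of ER-associated degradation and the translocon, 1 of 6 (16.7%) was higher after withdrawal and 1 of 6 at 12 weeks than in the 8-week group, in both cases Sec61b, against 24.2% and 12.3% of all genes. Between the treated groups, Sec61b and Edem1 were higher after withdrawal. The FPKM of Sec61b, a subunit of the channel through which proteins enter the ER, was 8.35, 8.47 and 10.1 at 8 weeks, 14.5 and 12.3 at 12 weeks, and 64.5, 50.8 and 52.3 after withdrawal. The withdrawal samples lay far above the rest, with log2 fold changes of 2.51 (SE 0.13, adjusted p = 2.98e-06) against the 8-week group and 1.98 (SE 0.15, adjusted p = 3.32e-05) against the 12-week group, and both calls held in every fit that left out 1 sample. At 12 weeks it exceeded the 8-week group by 0.53 (SE 0.15, adjusted p = 0.0415), a call lost without any one 8-week sample, either 12-week sample or C098 (0.0324 to 0.132). Of its transcript windows 17.4% occur in another gene. The non-members Sec61g (14.8% shared) and Vcp (43.6% shared) were also higher in the second code series, Sec61g from at most 0.346 to at least 13.1 FPKM and Vcp from at most 43.5 to at least 193. Treatment, code series and the handling of shared reads cannot be told apart for these genes.

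Edem1, which directs misfolded glycoproteins to degradation, had an FPKM of 38.3, 43.8 and 40.95 at 8 weeks, 37.7 and 26.99 at 12 weeks, and 51.6, 42.2 and 45.3 after withdrawal. It was higher in the withdrawal group than in the 12-week group by 0.52 (SE 0.16, adjusted p = 0.0404), a call lost without any one 8-week sample, 3e, C096 or C098 (0.00672 to 0.202). Herpud1, a membrane protein of the degradation complex with both a CARE and an ERSE-II in its promoter, ranged from 120.5 to 171 in the 8-week group, 83.2 to 120 in the 12-week group and 59.4 to 168 in the withdrawal group. Its log2 fold change in the withdrawal group against the 8-week group was -0.61 (SE 0.35, adjusted p = 0.209), the lowest of the members, and its value in C096 was more than 2 times that in C097 or C098. Sel1l and Syvn1, partners in the degradation ligase, and Derl3 were not called, with log2 fold changes in the withdrawal group against the 8-week group of 0.62, 0.13 and 1.03.

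Inside the withdrawal group, C096 had the highest value of its group for 33 of 40 members (82.5%), against 32.8% of all genes tested. Its values lay a median of 0.66 (log2) above the mean of C097 and C098, against -0.0287 over all genes. C096 was highest for 9 of 9 chaperones, 6 of 6 genes of degradation and translocon and 7 of 8 ISR factors. The largest excess was that of Ddit3 at 2.68, followed by Derl3 at 2.15 and Trib3 at 2.12. Asns, by contrast, differed by -0.00789. These are differences between single samples and were not tested. Without C096, 12 members (30%, against 19% of all genes) were higher and 1 lower in the withdrawal group than in the 8-week group. The lower one was Herpud1, at -1.04 (SE 0.23, adjusted p = 0.0149), and Creld2, not called with all samples, was higher at 0.49 (SE 0.15, adjusted p = 0.0454). The 8 plasma cell markers, of a secretory cell type rich in these chaperones, summed to 2.32 FPKM in C096, the lowest of 8 samples, and 2.68 in C098. Mzb1 and Fcrla were listed at 0 in C096, and 6 of the 8 were below 1 in every sample. Of the pancreatic acinar markers, 10 of 10 were below 1 in every sample. The macrophage markers summed to 188 in C096, against 538 in C097 and 162 to 239 in the other samples. The part of these cell types in the values of C096 was not tested.

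Sample 3e was higher than 2e for 21 of 40 members (52.5%), against 61.2% of all genes. All 5 other targets of ATF4 were higher in 3e, with Chac1 and Fgf21 both differing by over 2 on the log2 scale (2.42 and 2.41). Conversely, 2e was higher for 6 of 8 ISR factors, with differences of 3e minus 2e of -1.89 for Atf3 and -1.60 for Ddit3, and for 6 of 9 chaperones.

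**Figure D4:**
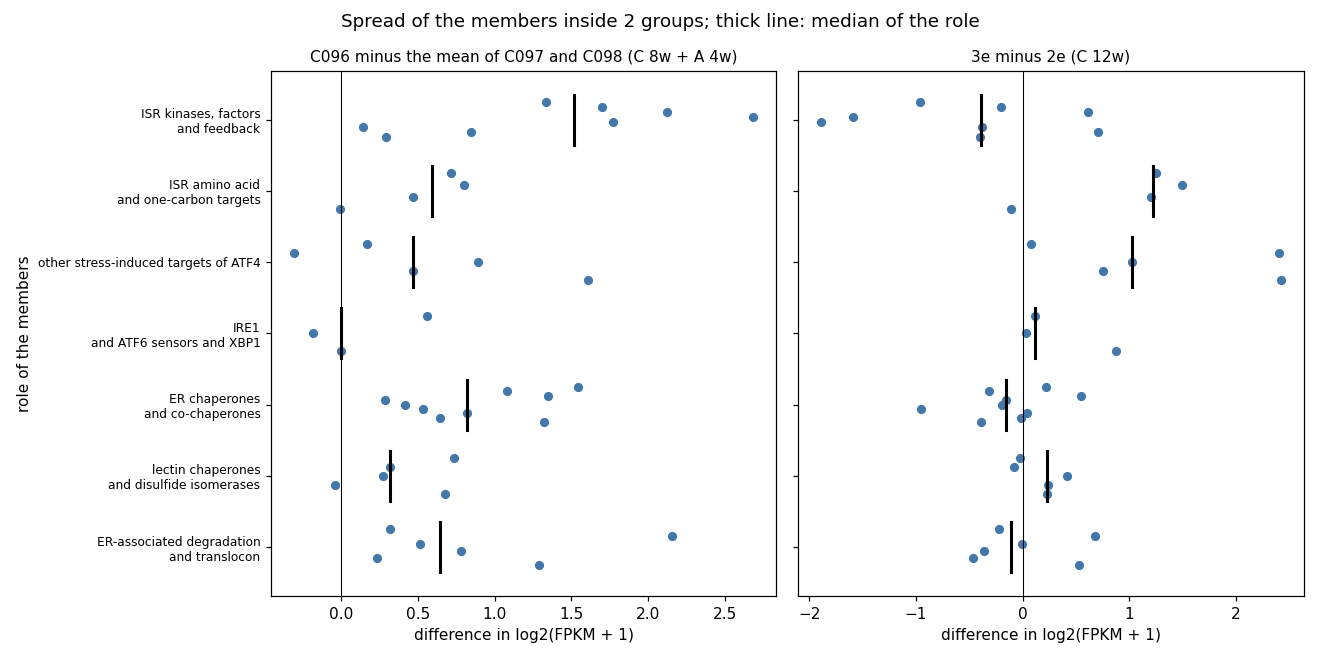
Differences in log2(FPKM + 1) (x axis) between samples of 1 group for 40 members, by role (y axis), with 1 point per gene and a thick line at the median. C096 exceeds the other withdrawal samples for all 9 chaperones, whereas 3e and 2e of the 12-week group differ in either direction depending on the role.

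Other genes of the same pathways, 97 listed by role and 93 tested, were described in the same way. After withdrawal 43 were higher (46.2%, against 24.2% of all genes) and 8 lower (8.6%, against 12.6%) than in the 8-week group. In the 12-week group against the 8-week group 32 were higher (34.4%, against 12.3%) and 2 lower (2.15%, against 6.34%), and between the withdrawal group and the 12-week group 19 were higher and 19 lower (20.4% each, near the 17.2% and 15.4% of all genes). With median-ratio scaling 34 were higher after withdrawal (36.6%, against 19.4% of all genes) and 21 at 12 weeks (22.6%, against 10.3%). Without 1a, 26 were higher after withdrawal (28%, against 14.2%). At 12 weeks 11, 15 and 11 were higher without 1a, 2a and 3a (11.8%, 16.1% and 11.8%, against 4.54%, 6.1% and 5.14%), and 19 without 3e (20.4%, against 8.92%). Between withdrawal and 12 weeks, 14 were higher (15.1%, against 13.7%) and 11 lower (11.8%, against 10.8%) without C098. Sec61g, Aldh18a1 and Slc7a1 reached the floor in no 8-week sample, and without such genes 40 of 90 (44.4%, against 23.4%) were higher after withdrawal and 31 of 90 (34.4%, against 11.5%) at 12 weeks. Of 12 aminoacyl-tRNA synthetases, which charge tRNAs and are known targets of ATF4, 10 (83.3%, against 12.3% of all genes) were higher in the 12-week group than in the 8-week group with a median log2 fold change of 0.77. This count was 5 without 1a or 3a (41.7%, against 4.54% and 5.14%), and 6 without 2a or 3e (50%, against 6.1% and 8.92%). After withdrawal, 5 of 12 (41.7%, against 24.2%) were higher and 1 lower than in the 8-week group, with a median of 0.37, and the 5 became 2 without 1a (16.7%, against 14.2%) and 3 without 3a or C096 (25%, against 18.1% and 19%). Against the 12-week group 5 of 12 were lower (41.7%, against 15.4%), and 3 without 3e or C098 (25%, against 12.9% and 10.8%). Genes of translocon and signal peptide handling were higher for 8 of 16 (50%, against 24.2% of all genes) in the withdrawal group and 7 of 16 (43.8%, against 12.3%) in the 12-week group, each against the 8-week group. Without Sec61g the first count was 7 of 15 (46.7%, against 23.4%). At 12 weeks the count was 2 with median-ratio scaling (12.5%, near the 10.3% of all genes), 2 without 2e (12.5%, against 25.6%) and 1 without any one 8-week sample (6.25%, against 4.54% to 6.1%).

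After withdrawal, the largest rises against the 8-week group were those of Sec61g at 3.61, Vcp at 2.25 (SE 0.11, adjusted p = 1.24e-06), and Dnajc10, a disulfide reductase of the ER, at 1.48 (SE 0.12, adjusted p = 4.00e-05). Sec61g, a channel subunit, passed the floor through the withdrawal samples alone and so had to differ, and its values are given with no test. The largest falls were those of Shmt2, a mitochondrial serine enzyme, at -1.14 (SE 0.12, adjusted p = 0.000234), Sil1, a nucleotide exchange factor of BiP, at -0.66 (SE 0.13, adjusted p = 0.00464), and Vars at -0.53 (SE 0.18, adjusted p = 0.0460). In the 12-week group against the 8-week group, Fkbp11, a prolyl isomerase of the ER, ranged from 8.64 to 12.2 FPKM at 8 weeks and 48.4 to 80.4 at 12 weeks, the largest rise at 2.52 (SE 0.35, adjusted p = 0.00338), followed by Aldh18a1, an enzyme of proline synthesis, at 1.21, given with no test because no 8-week sample reached the floor, and Ssr3, a translocon-associated protein, at 1.18 (SE 0.17, adjusted p = 0.00359). Cebpb, a partner of ATF4, was lower at -1.26 (SE 0.24, adjusted p = 0.0107), as was the eIF2 kinase Eif2ak1 at -0.47 (SE 0.12, adjusted p = 0.0331). Between withdrawal and 12 weeks, the largest rises were those of Sec61g at 3.55, given with no test as before, Vcp at 2.31 (SE 0.12, adjusted p = 2.64e-06) and Cebpb at 1.44 (SE 0.24, adjusted p = 0.00268). The largest falls were those of Fkbp11 at -1.64 (SE 0.35, adjusted p = 0.00870), Vars at -1.49 (SE 0.20, adjusted p = 0.000874) and Shmt2 at -0.90 (SE 0.14, adjusted p = 0.00174).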

How the data were processed

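RNA was sequenced from 8 Fah-/- samples, grouped by their treatment labels into C 8w (n = 3), C 12w (n = 2) and C 8w + A 4w (n = 3). One table of FPKM was deposited, in which the authors had divided fragments by transcript length and library size, for 22504 genes; 22314 of them had a symbol in the reference tables. The submitters' processing notes name Bowtie 0.12.2 and mm8, without their role; the quantifier and annotation are not given in the sources used here. The table held 0 columns of other samples. Depth and counting error are unknown.

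A gene was kept when 2 or more of 8 samples reached 0.5 FPKM. Values were compared on the log2(FPKM + 1) scale (pseudocount 1) by limma 3.58.1 under R 4.3.3, with 1 linear model for the 3 groups, a trended eBayes step, Benjamini-Hochberg adjustment over 12125 genes and a threshold of 0.05. The study names no test for differential expression. The test was checked on simulated data. Shared sequence is the percentage of a gene's 50-base transcript windows (GENCODE M21) found also in a different gene, counted in Python 3.11.15. Promoters were read from RefSeq (GRCm38.p6), and no coordinates of the authors' build were used.

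The members, lists and roles were chosen with earlier results of these data known. Values per sample are given for called members whose log2 fold change exceeded 0.5 in size and for Eif2ak3, Ern1, Atf6, Xbp1, Atf4 and Ddit3, and of the other pathway genes the 3 largest rises and falls among those called are named. Creld2, Derl3 and Herpud1 were singled out after their values were seen. Counts without genes at the floor in only 1 of the 2 groups compared were added after seeing the data, and used the same fit. 1 aminoacyl-tRNA synthetase and 1 hepatocyte marker of the lists matched no row. Alternatives were median-ratio and quantile scaling, a pseudocount of 0.1, another floor or no floor, no trend, only the 2 groups compared, each sample left out, a log2 limit of 1, at most 2% shared sequence and a replicate block. The crossed block was chosen after seeing the data.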

Additional observations from a re-analysis of the deposited data

How the results depend on the processing

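Of 583 recomputed calls of single members, 402 kept their side of the threshold, 181 lost it and 0 changed direction; 9 of 37 calls held under all of the scalings, floors, pseudocount, eBayes and sample choices run for single members, which leave out the log2 limit and the limit on shared sequence (Asns, Psat1, Vldlr and Sec61b in the withdrawal group against the 8-week group, Sec61b against the 12-week group, and Asns, Psat1, Mthfd2 and Nupr1 in the 12-week group against the 8-week group). Nupr1 reached the floor in no 8-week sample and is given with no test, so it should not be counted among the 9. The last 4 named were lost under both replicate blocks, which were run for that comparison alone. In the withdrawal group against the 8-week group, the 15 members called became 9 with median-ratio scaling, 7 with a log2 limit of 1 and 5 to 21 with 1 sample left out, and the 51 other pathway genes became 15 with the log2 limit and 30 to 60 with 1 sample left out. In the 12-week group against the 8-week group, the 14 members became 7 with no filter on low values, 9 with median-ratio scaling, 7 with the log2 limit and 4 to 18 with 1 sample left out, and the 34 other genes became 8 with the log2 limit and 12 to 36 with 1 sample left out. In the withdrawal group against the 12-week group, the 8 members became 3 with no filter, 1 with only the 2 groups compared and 2 to 9 with 1 sample left out, and the 38 other genes became 20 with only the 2 groups, 9 with the log2 limit, 23 at most 2% shared sequence and 25 to 38 with 1 sample left out. Where 1 sample of the 12-week group was left out, the other was assumed to vary like the other groups. The share of all genes called moved too: 24.2% were higher after withdrawal with all samples and 14.2% without 1a. At 12 weeks these shares were 12.3% and 4.54%. For the other settings of this paragraph, no share of all genes is set beside the counts here. A drop in them is therefore not shown to be particular to the members. The causes were not tested.

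Replicate numbers 2 and 3 occur in both the 8-week and the 12-week group. The difference between numbers 3 and 2 had a correlation of -0.168 between the groups across 12125 genes. This rests on 1 difference per group, so it cannot show whether samples with the same number are paired. With a replicate block on these 4 samples, limma called 0 members (18 at an unadjusted p under 0.05) and 1 other gene. Over all 12125 genes it called 16 (2029 at an unadjusted p under 0.05). With the block crossed, it called 0 members (19 at an unadjusted p under 0.05) and 0 other genes (35 at an unadjusted p under 0.05). Over all genes it then called 2 (2613 at an unadjusted p under 0.05).

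Quantile scaling moved the median of all genes by -0.15 in the withdrawal group and by -0.139 in the 12-week group against the 8-week group. Depth was unknown, so counting error of low genes such as Phgdh could not be set beside these spreads.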
